A study of Mus musculus with 6 samples.

Results

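The miR-29 family was examined in the small RNA of serum exosomes from sham mice and from mice given Acu/LFES, which is acupuncture with a weak electrical current of low frequency passed through the needles. Exosomes are small vesicles that cells shed into the blood, and they carry microRNAs (miRNAs), short RNAs that lower the translation and the stability of mRNAs. The family was taken as the 5 rows of the deposited count table with the names mmu-miR-29a-3p, mmu-miR-29b-3p, mmu-miR-29c-3p, mmu-miR-29a-5p and mmu-miR-29c-5p, out of 1982 rows in all. All 6 animals were male C57BL/6 mice aged 3 months, and each gave a single library. The 3 sham mice (mice 1, 2 and 3) were needled beside the hindlimb points and got no current, and the 3 Acu/LFES mice (mice 4, 5 and 6) received current at the points in a single session. The time from treatment to blood collection for these libraries is not given in the sources used here.

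The miR-29 family is known for its action on the extracellular matrix. Its 3p arms bind the mRNAs of fibrillar collagens, elastin and fibrillin, and loss of miR-29 is a common feature of fibrotic tissue. In skeletal muscle the family also binds the mRNAs of Igf1, the growth factor that drives protein synthesis, and of Pik3r1, the regulatory subunit of PI3K that relays the signal of the Igf1 receptor. Each hairpin gives a 5p and a 3p arm. The 3p arm is the one usually loaded and kept, and the 5p arm is usually degraded.

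The sequences are shown because the seed (bases 2 to 8, in capitals, counted from the 5′ end) decides which mRNAs are bound, and because the 3p arms are so alike that the counting of reads can mix them. They are the RefSeq entries on GRCm38.p6, where all 5 members matched by name. The 3p arms share the seed AGCACCA, which no other mature miRNA of the 1679 in that reference has.
miR-29a-3p: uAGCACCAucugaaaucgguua
miR-29c-3p: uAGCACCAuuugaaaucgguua
miR-29b-3p: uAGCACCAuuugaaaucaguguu
miR-29a-5p: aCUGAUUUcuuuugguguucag
miR-29c-5p: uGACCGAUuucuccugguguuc
From miR-29a-3p to miR-29c-3p there is 1 change, C10U, and both arms have 22 bases. From miR-29c-3p to miR-29b-3p there are 3 changes, G18A, U21G and A22U, and miR-29b-3p has 1 base more. The 5p arms have different seeds, CUGAUUU in miR-29a-5p and GACCGAU in miR-29c-5p, so they pair with other sites than the 3p arms do.

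The family comes from 2 pairs of genes. Mir29a (chr6:31062660-31062747) and Mir29b-1 (chr6:31063023-31063093) lie on the minus strand, 275 bases apart. In GENCODE M21 Mir29a overlaps no other gene, and the first bases of Mir29b-1 overlap the last bases of the noncoding gene Gm27019. Mir29b-2 (chr1:195037040-195037120) and Mir29c (chr1:195037547-195037634) lie on the plus strand, 426 bases apart, in an exon of the noncoding gene A330023F24Rik and, on the other strand, in an exon of Cd46. The mature miR-29b-3p is the same from both of its genes, so its reads do not show which pair they came from. miR-29a reads come from the first pair and miR-29c reads from the second.

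The bases that pair with the 3p seed are TGGTGCT in the 3′-UTR of an mRNA. This motif was searched on the sense strand of the longest annotated 3′-UTR of each protein-coding gene (GENCODE M21, GRCm38), with overlapping matches allowed. It was present in 13.1% of 21020 genes, whose 3′-UTRs had a median length of 961 bases. The 6 genes of the matrix and of Igf1 signalling shown here were picked as known targets. Their matches are therefore no test against that share. Igf1 had 2 matches in 6308 bases of 3′-UTR and Pik3r1 had 1 in 4317. Col1a1 had 1 in 1423, Col3a1 had 1 in 959, Eln (elastin) had 3 in 1188 and Fbn1 (fibrillin) had 2 in 992. The 3′-UTRs of Igf1 and Pik3r1 are thus several times longer than the median, and a longer stretch holds a match more often. A few of these stretches follow, with the match in capitals, to show the same letters in a growth factor, a signalling subunit and the collagens.
Igf1 first match, chr10:87931652-87931680, plus strand: ttgttgttttttagtacaaTGGTGCTatt
Igf1 next match, chr10:87934286-87934314, plus strand: ttggccagctacgccaatgTGGTGCTatt
Pik3r1, chr13:101684500-101684528, minus strand: acaaagaggcctttaaccaTGGTGCTtgt
Col1a1, chr11:94952519-94952547, plus strand: tggggtgggaaggaatttcTGGTGCTata
Col3a1, chr1:45348963-45348991, plus strand: caacttcaaaatgtctcaaTGGTGCTata
In Igf1, Col1a1 and Col3a1 each match is followed by an A, the base that usually strengthens a miRNA site, and in Pik3r1 by a T. Of the matches not shown, 2 of 3 in Eln and 1 of 2 in Fbn1 are followed by an A. A match only describes the letters. No mRNA or protein was measured in these libraries.

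Total counts per library were 391708 to 658833 in sham mice and 517421 to 1504137 in Acu/LFES mice, and the numbers of miRNAs detected were 338 to 453 and 489 to 666. Mouse 6 stood apart. miR-486a-5p and miR-486b-5p, used here as red-cell markers and also among the Igf1, PI3K and muscle miRNAs listed below, have identical counts. The same reads may thus stand in both rows. Both rows are summed in the shares that follow, which would then be too high. Together they took 29.2% of the counts of mouse 6, against 61.7% to 74.0% in the other mice. Counts were therefore scaled with edgeR's TMM factors, which rest on the miRNAs that differ least between libraries and were between 0.65 and 2.12. Normalized CPM are counts divided by the library size times this factor and brought to a common total. In mouse 6 the red-cell miRNAs miR-451a and miR-16-5p were at 943 and 8210 CPM. The sham mice had 692 to 1302 CPM of miR-451a and 7219 to 8130 CPM of miR-16-5p. Of the markers of blood and organs, miR-451a, miR-223-3p, miR-126a-3p, miR-122-5p and the muscle miRNAs miR-1a-3p, miR-133a-3p and miR-206-3p were present in both groups with overlapping levels, while the red-cell miR-144-3p had 3 counts in mouse 4, 1 in mouse 6 and 0 elsewhere. Serum pools vesicles from many tissues, so fewer vesicles from a tissue and less miRNA per vesicle cannot be told apart.

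The miR-29 counts of these exosome libraries were almost entirely miR-29a-3p. It held 3489 of the 3604 counts of the 5 members over all mice. miR-29c-3p had 93 counts, miR-29b-3p had 13, miR-29a-5p had 5 and miR-29c-5p had 4. The mature arms are of nearly equal length, but ligation and PCR also depend on sequence, so these counts describe the libraries and need not give the amounts of each miRNA in the exosomes. By mean normalized CPM, miR-29a-3p ranked 59 and miR-29c-3p ranked 252 of the 259 miRNAs with enough counts to be tested. The other 3 members had too few counts for a test under edgeR's default filter.

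**Figure D1:**
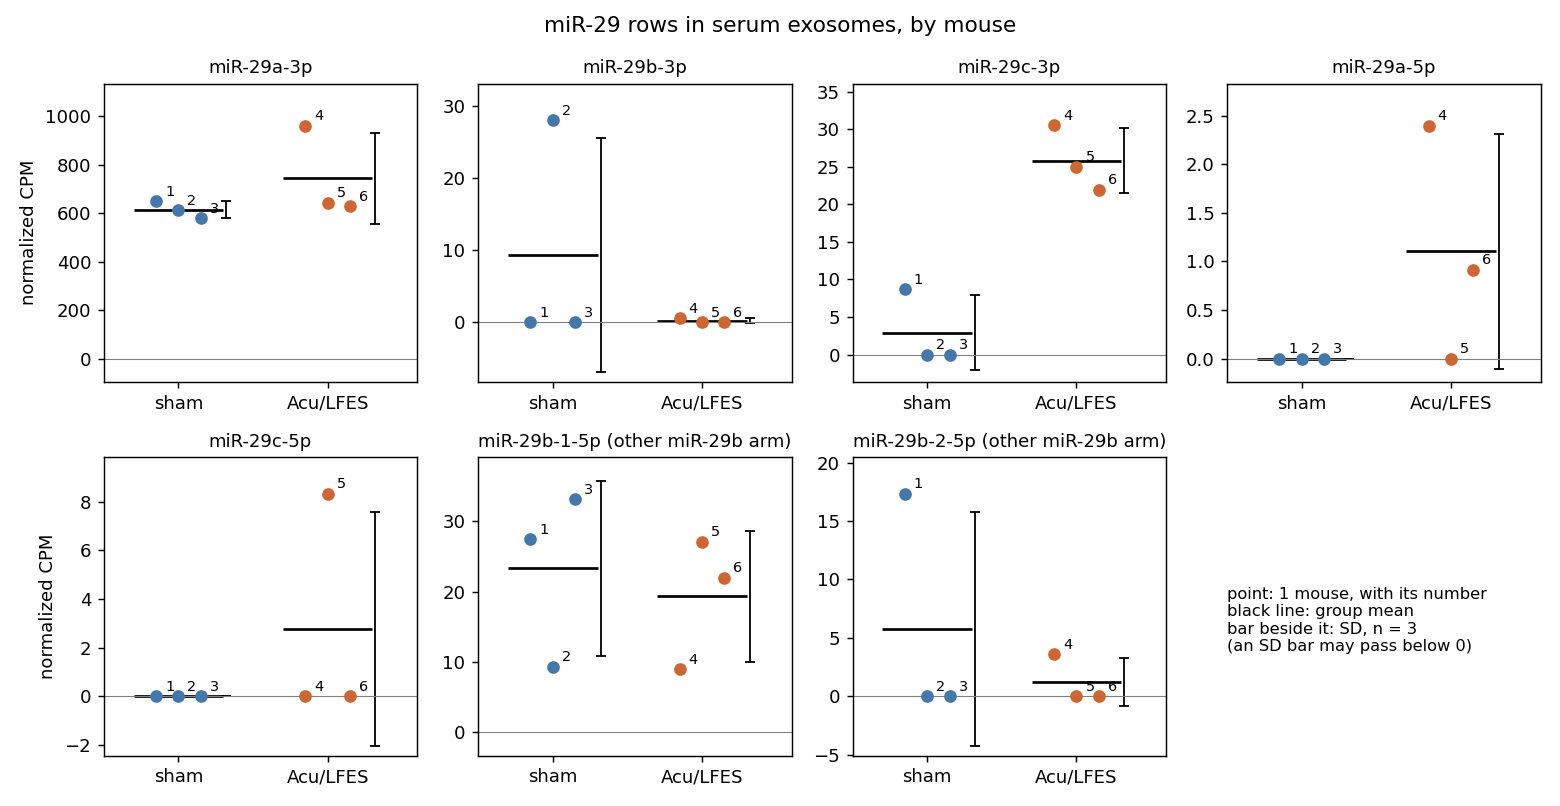
Normalized CPM (counts after TMM scaling to a common total) of the 7 miR-29 rows in each mouse, sham in blue and Acu/LFES in orange, with the group mean as a black line and its SD (n = 3) as the bar beside it. miR-29a-3p lies between 579 and 962 CPM with overlapping groups, miR-29c-3p is higher in each Acu/LFES mouse than in any sham mouse, and the remaining rows are near 0 or overlap.

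The first question was whether the level of miR-29a-3p, the main carrier of the seed, differed between the groups. Its counts were 450, 262 and 175 in sham mice 1, 2 and 3, and 1604, 309 and 689 in Acu/LFES mice 4, 5 and 6. Normalized CPM were 650, 612 and 579 under sham and 962, 644 and 630 under Acu/LFES. Mouse 4, the most deeply sequenced, was high, and the remaining Acu/LFES mice lay within the range of the sham mice. The sham mean was 614 ± 35.3 CPM and the Acu/LFES mean 745 ± 188 CPM (± SD over 3 mice a group). Acu/LFES stood 0.28 above sham on the log2 scale (standard error 0.26, 95% interval from -0.30 to 0.86, edgeR adjusted p = 0.799). This interval includes 0. The sham mice spread less than the group means lay apart, and the wider spread of the Acu/LFES mice came from mouse 4. Without mouse 4 the log2 fold change was 0.05. Scaled by total counts it was 0.89, and the median of all miRNAs tested then moved as well, from 0.05 to 0.71.

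miR-29c-3p differs from miR-29a-3p by a single base and was far rarer. It had 6, 0 and 0 counts in sham mice 1, 2 and 3, and 51, 12 and 24 counts in Acu/LFES mice 4, 5 and 6. Normalized CPM were 8.67, 0 and 0 under sham and 30.6, 25.0 and 21.9 under Acu/LFES. Each Acu/LFES mouse was above each sham mouse. For comparison, 8.88% of all miRNAs tested had Acu/LFES mice all above the sham mice, and 8.11% had them all below. The limit that a count of 0 allows, taken as 3 counts, was 7.01 CPM in sham mouse 2 and 9.93 CPM in sham mouse 3, both under the lowest Acu/LFES mouse. This covers counting error only.

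Its entry into the test depended on the group where it was high. edgeR's filter asked for 15.9 CPM before TMM scaling in at least 3 libraries, and miR-29c-3p reached it in the 3 Acu/LFES mice and in 0 sham mice. A miRNA that enters only through the group where it is high had to differ between the groups. There were 5 such miRNAs among those tested, and 0 that entered only through the sham mice. Among the 96 tested miRNAs with a mean under 50 CPM, 9 had Acu/LFES mice all above the sham mice and 7 had them all below.

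miR-29c-3p averaged 2.89 ± 5.00 CPM under sham and 25.8 ± 4.38 CPM under Acu/LFES (± SD over 3 mice a group). The log2 fold change was 2.83 (standard error 1.21, 95% interval from 0.14 to 5.52, edgeR unadjusted p = 0.0409, adjusted p = 0.518). It did not pass the threshold of 0.05 after adjustment over all miRNAs tested. By edgeR 0 of 259 miRNAs did (0.00%), and by DESeq2 9 did, where miR-29c-3p was given no adjusted p. At an unadjusted p under 0.05, 5.79% of the miRNAs tested were higher with Acu/LFES (15 of 259) and 3.09% were lower (8 of 259). miR-29c-3p was among the 15, a place that supports nothing further because of the way it passed the filter. The edgeR unadjusted p was 0.104 to 0.175 without any 1 mouse other than sham mouse 1, and 0.00952 without that mouse. It was 0.0691 with scaling to miR-103-3p and 0.0627 with no filter on low counts. The size of its fold change depends on a few sham counts, since 2 of the 3 sham mice had none. Without sham mouse 1, no sham count was left. The fitted log2 fold change was then 7.37, which is no bound. The mean of the Acu/LFES mice was 2.60 times the higher limit of sham mice 2 and 3, 9.93 CPM, and the lowest Acu/LFES mouse 2.21 times. These values leave out the only sham mouse with counts and carry no error for the Acu/LFES mice.

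The Acu/LFES libraries also had more miRNAs detected, and the part of this difference in detection in the result for miR-29c-3p was not tested. Without mouse 6, the library with few miR-486 counts, the log2 fold change was 2.95 (standard error 1.61, edgeR unadjusted p = 0.104). Mice 4 and 5 also had more miRNAs detected (666 and 489) than any sham mouse, so this fit does not address detection.

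**Figure D2:**
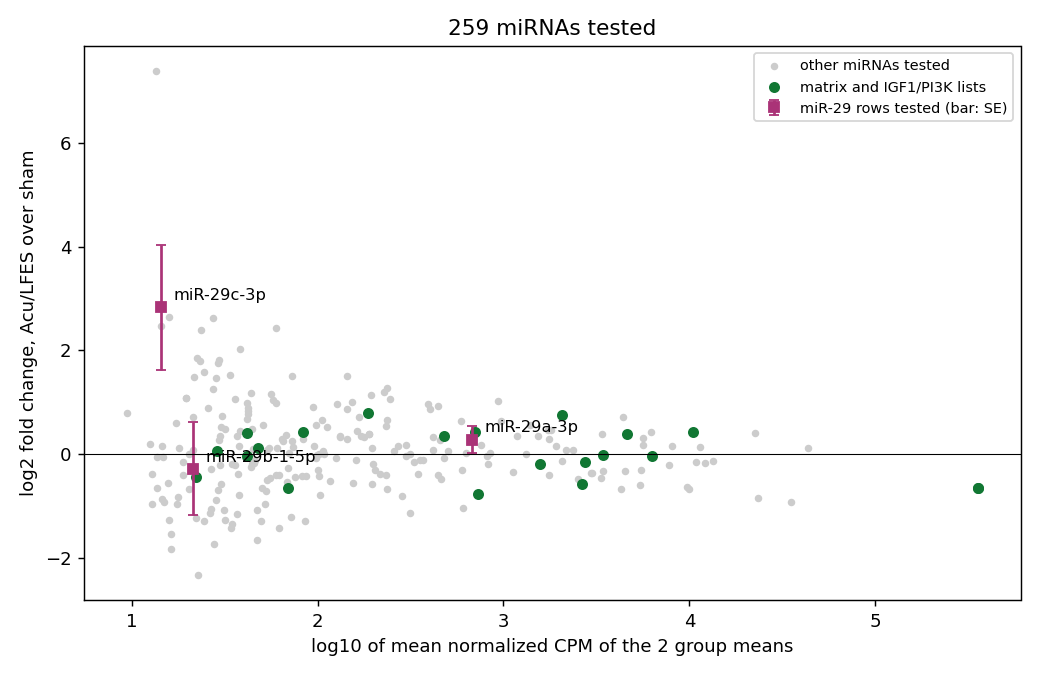
Log2 fold change of Acu/LFES over sham (vertical axis) against the log10 of the mean of both group means in normalized CPM (horizontal axis) for the 259 miRNAs tested, with the miR-29 rows as squares with standard error bars and the matrix and IGF1/PI3K lists in green. miR-29c-3p has the second highest fold change, 2.83, among miRNAs of low level where the fold changes spread widely, and miR-29a-3p, at 0.28, lies near the middle. miR-29c-3p was tested only through its counts in the Acu/LFES mice, so its rank is no separate support.

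Ratios within a library do not depend on the scaling, so the makeup of the family was compared next. miR-29c-3p took 6 of 456 3p counts (1.32%) in sham mouse 1, 0 of 274 in sham mouse 2 (which allows a share of up to 1.09%) and 0 of 175 in sham mouse 3 (which allows up to 1.71%). It took 51 of 1656 (3.08%), 12 of 321 (3.74%) and 24 of 713 (3.37%) in Acu/LFES mice 4, 5 and 6. The Acu/LFES mice, with very different depths, thus had close shares, all above those of the sham mice. These shares reuse the miR-29c-3p counts that carried it through the filter, so their separation adds no further support. The exact (Clopper-Pearson) 95% intervals of single libraries still met. They reached 2.84%, 1.34% and 2.09% in sham mice 1, 2 and 3. For a count of 0 they are wider than the limits of 3 counts given above. In Acu/LFES mice 4, 5 and 6 they began at 2.30%, 1.95% and 2.17%. Each Acu/LFES interval thus met that of sham mouse 1, and that of mouse 5 also met that of sham mouse 3. Reads are not independent molecules, so these intervals cover counting error only.

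On the log2 scale, with 0.5 added to both counts, the ratio of miR-29c-3p to miR-29a-3p was -6.11, -9.04 and -8.46 under sham and -4.96, -4.63 and -4.81 under Acu/LFES. It averaged -7.87 ± 1.55 and -4.80 ± 0.17, a difference of 3.07 (± SD over 3 mice a group). The groups did not overlap, but the ratio reuses the same miR-29c-3p counts and is no separate support. The permutation p, exact and two-sided as for all ratios here, was 0.1, the smallest possible with 3 mice against 3, and 0.28 when adjusted over the 7 ratios compared. The sham values depend on the added 0.5, and with 1 added the difference was 2.40. With each mouse left out in turn it stayed between 2.48 and 3.94. As C10U is the only change between these arms, how reads with a mismatch were assigned would enter this ratio directly, and the mismatches allowed are not given in the sources used here.

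**Figure D3:**
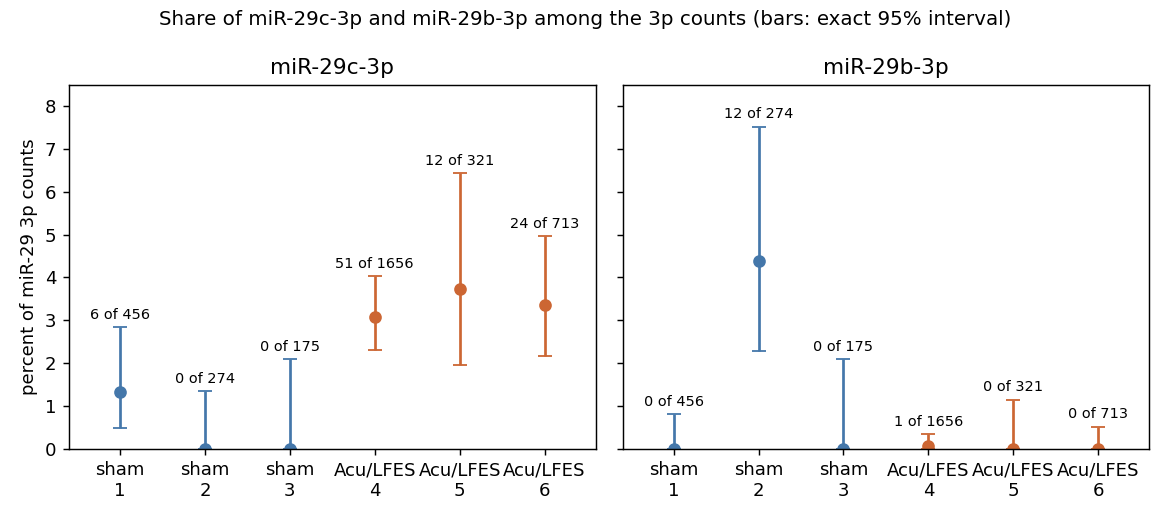
Percent of the miR-29 3p counts (vertical axis) taken by miR-29c-3p and by miR-29b-3p in each mouse, sham in blue and Acu/LFES in orange, with exact 95% intervals and the counts above each bar. The share of miR-29c-3p is 3.08% to 3.74% in the Acu/LFES mice against 0% to 1.32% in the sham mice, and miR-29b-3p stands out in sham mouse 2 alone, at 4.38%.

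miR-29b-3p carries the same seed and is known for a motif at its 3′ end that directs it to the nucleus. It had 0, 12 and 0 counts in sham mice 1, 2 and 3 and 1, 0 and 0 counts in Acu/LFES mice 4, 5 and 6. Of its 13 counts, 12 were thus in sham mouse 2, where it took 4.38% of the 3p counts. In Acu/LFES mouse 6, with 713 3p counts, a count of 0 allows a share of up to 0.421%, and in sham mouse 1, with 456, up to 0.658%. The log2 ratio of miR-29b-3p to miR-29a-3p averaged -7.55 ± 2.82 under sham and -9.92 ± 0.59 under Acu/LFES, with overlap between groups (exact permutation p = 0.2, adjusted 0.28). The difference of -2.37 was -0.79 without sham mouse 2. The log2 ratio of miR-29b-3p to miR-29c-3p was lower in each Acu/LFES mouse than in any sham mouse, with a difference of -5.43 (exact permutation p = 0.1, adjusted 0.28) that was -3.27 without sham mouse 2. miR-29b-3p had no count in mice 1, 3, 5 and 6, so there the ratio is the added 0.5 over the miR-29c-3p count and only restates that count. In sham mouse 3 neither arm had a count.

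The 5p rows of miR-29b are not among the 5 members but, over all mice, hold more counts of this miRNA than its 3p row does. miR-29b-1-5p, from the chromosome 6 pair, had 19, 4 and 10 counts under sham and 15, 13 and 24 under Acu/LFES. It was seen in every mouse, at 23.3 ± 12.4 CPM under sham and 19.3 ± 9.32 CPM under Acu/LFES, or -0.28 on the log2 scale for Acu/LFES over sham (standard error 0.90, edgeR adjusted p = 0.963). miR-29b-2-5p, from the chromosome 1 pair, had 12 counts in sham mouse 1 and 6 in Acu/LFES mouse 4, and 0 in the others. Together the 5p rows held 103 of the 116 counts of miR-29b over all mice, or 88.8%. Sham mouse 2 went the other way, with 12 counts of the 3p row beside 4 of miR-29b-1-5p and 0 of miR-29b-2-5p.

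In miR-29a and miR-29c the 3p arm held most of the counts over all mice. miR-29a-5p had 4 counts in mouse 4 and 1 in mouse 6 and none elsewhere, which is 0.143% of the 3494 counts of both miR-29a arms. miR-29c-5p had 4 counts, all in mouse 5, out of 97 counts of both miR-29c arms, or 4.12%. All 9 counts of these 5p members were in Acu/LFES mice. At the depth of the sham libraries a count of 0 allows 4.33 to 9.93 CPM. miR-29a-5p reached at most 2.40 CPM, under each of these limits, so a difference in it was not detectable at this depth. miR-29c-5p reached 8.33 CPM in mouse 5, above the limits of sham mice 1 and 2 and under that of sham mouse 3, and was at 0 in mice 4 and 6. The log2 ratio of miR-29a-5p to miR-29a-3p differed by 0.24 with overlapping groups (exact permutation p = 0.7, adjusted 0.7). The log2 ratio of miR-29c-5p to miR-29c-3p differed by -3.36 (exact permutation p = 0.2, adjusted 0.28), but in every mouse other than mouse 5 it was set by the added 0.5 and the miR-29c-3p count, and in sham mice 2 and 3 by the added 0.5 alone, so it says nothing of the 5p arm.

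Because the 3p arms share a seed, their summed counts were compared as well. The sum was 456, 274 and 175 counts under sham and 1656, 321 and 713 under Acu/LFES. In normalized CPM it averaged 626 ± 40.7 and 772 ± 192 (± SD over 3 mice a group). With the arms replaced by their sum, edgeR gave a log2 fold change of 0.30 (standard error 0.26, 95% interval from -0.28 to 0.88, adjusted p = 0.803). Mouse 4 stood above the rest at 994 CPM. The other Acu/LFES mice had 669 and 652 CPM, beside 657, 641 and 580 CPM in sham mice 1, 2 and 3. Without mouse 4 the log2 fold change was 0.08. miR-29c-3p made up at most 3.74% of the sum in any mouse, so a difference in it moves the sum little.

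Set against miRNAs often used as serum references, the sum overlapped between the groups. The log2 ratio to miR-103-3p averaged -0.38 ± 0.63 under sham and 0.02 ± 0.10 under Acu/LFES, a difference of 0.40 (exact permutation p = 0.4, adjusted 0.467). Sham mouse 2 was low in this ratio, at -1.10, and it had the highest level of miR-103-3p itself, at 1372 CPM. Without this mouse the difference was 0.05. The log2 ratio to miR-16-5p, a red-cell and housekeeping miRNA, was tighter, at -3.61 ± 0.14 under sham and -3.45 ± 0.20 under Acu/LFES, a difference of 0.16 (exact permutation p = 0.2, adjusted 0.28).

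**Figure D4:**
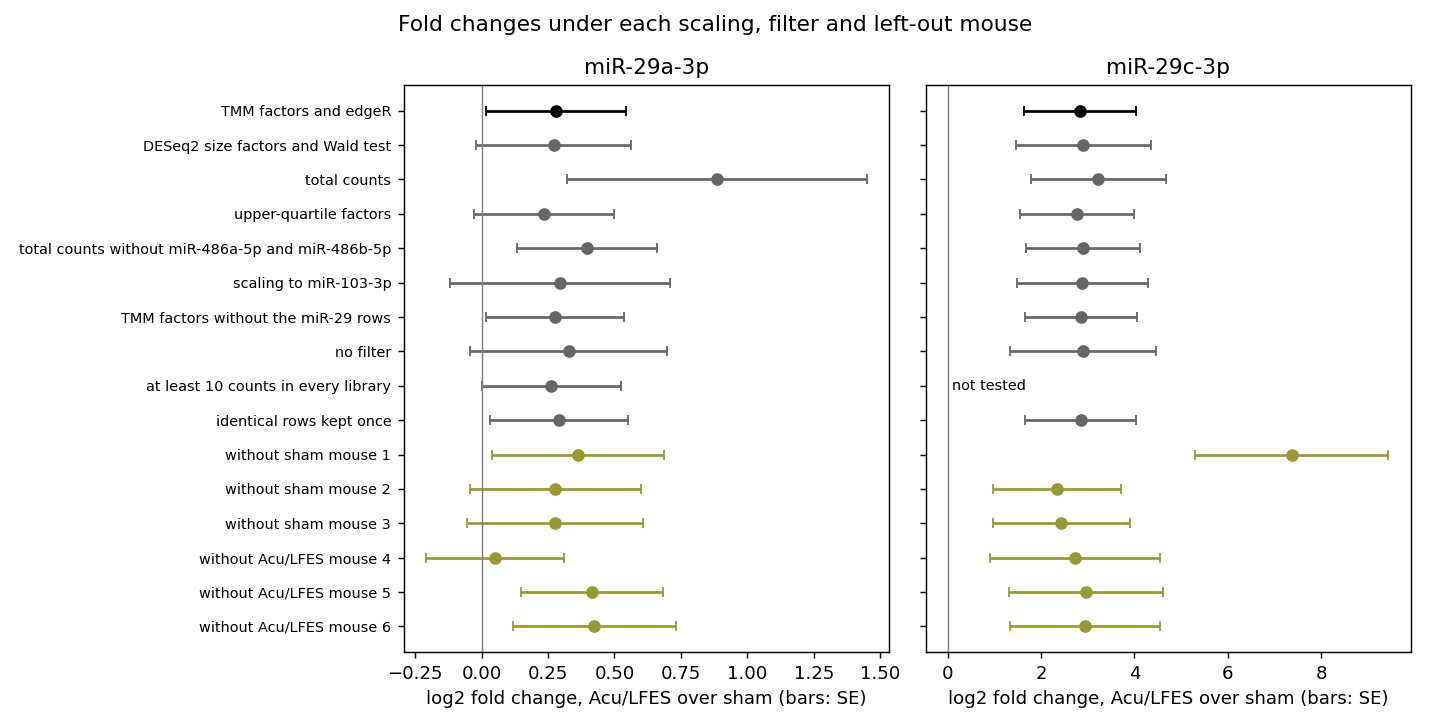
Log2 fold change of Acu/LFES over sham (horizontal axis, with standard error bars) of miR-29a-3p and miR-29c-3p under each scaling, filter and left-out mouse (vertical axis). miR-29a-3p goes from 0.05 without mouse 4 to 0.89 with total counts, and miR-29c-3p from 2.34 to 3.23 except without sham mouse 1, where no sham count is left.

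The miRNAs whose pattern over the 6 mice was most like the 3p sum, by Pearson correlation of log2 normalized CPM, were miR-19b-3p (r = 0.84), miR-21a-5p (r = 0.83), miR-181a-5p (r = 0.79), let-7i-5p (r = 0.79) and miR-16-5p (r = 0.78). The median over the 256 other miRNAs tested was 0.11. These correlations describe 6 libraries that share their scaling, and mouse 4 was the highest mouse for each of the 5. miR-19b-3p, a member of the miR-17-92 cluster, was at 136 ± 65.1 CPM under sham and 239 ± 95.5 CPM under Acu/LFES. miR-181a-5p had Acu/LFES mice all above the sham mice, at 1117 ± 185 CPM under sham and 1656 ± 245 CPM under Acu/LFES, a log2 fold change of 0.57 (edgeR adjusted p = 0.518).

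Other miRNAs known to act on the matrix or on Igf1 and PI3K signalling were compared as listed groups. Of 12 miRNAs with known roles in matrix and fibrosis, all 12 were tested, 0 were higher and 1 was lower at an unadjusted p under 0.05, beside 5.79% higher and 3.09% lower over all miRNAs tested, so the counts do not set the list apart. By edgeR 0 passed the adjustment. That one was miR-30c-5p, which targets connective tissue growth factor, at 3166 ± 149 CPM under sham and 2129 ± 344 CPM under Acu/LFES, a log2 fold change of -0.57 (edgeR unadjusted p = 0.0242, adjusted p = 0.503). miR-21a-5p, a profibrotic miRNA that often moves opposite to miR-29, was at 8941 ± 1416 CPM under sham and 11939 ± 5006 CPM under Acu/LFES, with a log2 fold change of 0.42 (edgeR adjusted p = 0.786). The median of the list was -0.04, beside 0.05 over all miRNAs tested.

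Of 12 miRNAs known for Igf1, PI3K or muscle mass, all 12 were tested and 0 were higher or lower at an unadjusted p under 0.05, beside the same 5.79% and 3.09% over all miRNAs tested, with a median log2 fold change of 0.02. The list counts miR-486a-5p and miR-486b-5p, whose rows are identical, as 2 miRNAs, and it holds 3 miRNAs of the matrix list as well. miR-199a-3p, which targets mTOR, had a log2 fold change of 0.75 (unadjusted p = 0.0837), miR-19b-3p of 0.80 (unadjusted p = 0.134) and the muscle miRNA miR-206-3p of -0.77 (unadjusted p = 0.162, by edgeR for each). let-7 was left out of both lists because the study chose it on these samples.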

How the data were processed

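Small RNA of serum exosomes was sequenced from 3 sham and 3 Acu/LFES mice, grouped by the sample titles, whose mouse numbers 1 to 6 are not shared between groups. Each mouse has a column of raw counts of mature miRNAs, which the authors deposited without normalization. The submitters' processing notes name bcl2fastq 1, cutadapt 1.6 and DESeq2 1.26.0, without their roles. The aligner, the miRNA annotation and the mismatches allowed are not given in the sources used here.

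The whole table was fitted with edgeR 4.0.16 (R 4.3.3). Rows were filtered with filterByExpr at a minimum count of 10, scaled with TMM factors and tested with the quasi-likelihood F test. Of 954 miRNAs with a count, 259 were tested, and Benjamini-Hochberg adjustment ran over these, with a threshold of 0.05. Standard errors came from the F statistic. For ratios within a library, groups were permuted exactly and two-sided (scipy 1.17.1). The script was tested on simulated data. Depth per library was 391708 to 1504137 counts, and a miRNA with 3 counts stood between 1.80 and 9.93 CPM, for counting error only. 3 mice against 3 measure the spread between these libraries.

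Alternatives were DESeq2 1.42.0, 5 other scalings, 2 other filters, identical rows kept once, another pseudocount and each mouse left out. The miRNAs named are the members, the miR-29b 5p rows, the references, the 5 most like the 3p sum and examples of 2 lists, taken by smallest unadjusted p. The members and lists were chosen with earlier results of these data known. Mature sequences are from RefSeq and 3′-UTRs from GENCODE M21.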

Additional observations from a re-analysis of the deposited data

How the results depend on the processing

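No paired analysis was possible because the mouse numbers are not shared between the groups. The log2 fold changes of miR-29a-3p, miR-29c-3p and the 3p sum were positive under every alternative run for them, and 0 of these passed the adjusted threshold. Their adjusted p ranged from 0.543 to 0.999, from 0.220 to 0.995 and from 0.539 to 0.999. The filter of at least 10 counts in every library left miR-29c-3p untested, and DESeq2 gave it no adjusted p. Leaving out each mouse gave log2 fold changes of 0.05 to 0.42 for miR-29a-3p, 2.34 to 7.37 for miR-29c-3p (the highest without sham mouse 1) and 0.08 to 0.46 for the sum. The log2 ratio of miR-29a-5p to miR-29a-3p reversed to -0.24 with a pseudocount of 1, and went from -0.12 to 0.56 with a mouse left out. The other 6 ratios kept their direction under the other pseudocount and in each fit without a mouse.

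Over all miRNAs, DESeq2's Wald test called 9 at an adjusted p under 0.05, where edgeR called 0 against 23 at an unadjusted p under 0.05. That number was 7 with scaling to miR-103-3p (7 higher, 0 lower), 53 with no filter, where more rows were tested, and 19 to 48 with a mouse left out, the most without sham mouse 1. With total counts 23 were higher and 0 lower, against 15 and 8 with TMM factors, and with totals without miR-486a-5p and miR-486b-5p 20 and 6. For the differences between tests and scalings the cause was not tested. With 0 to 51 counts per library, every member but miR-29a-3p was limited by depth.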

Other observations

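With no filter on low counts, edgeR also fitted the rare members. The log2 fold change of Acu/LFES over sham was then -4.39 for miR-29b-3p (unadjusted p = 0.140), 3.09 for miR-29a-5p (unadjusted p = 0.243) and 3.97 for miR-29c-5p (unadjusted p = 0.190). Their adjusted p lay between 0.577 and 0.588. These fitted values rest on 4 to 13 counts in all and on groups whose mice were mostly at 0, so they give no bound on a fold. Over the 6 mice, miR-29a-3p and miR-29c-3p had a Pearson r of 0.577 on log2 normalized CPM, where 2 mice shared a count of 0 for miR-29c-3p.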
